A study of Mus musculus with 28 samples.

Results

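Cholesterol efflux, lipoprotein and ester handling genes were represented on the array by 9 members: Abca1, Abcg1, Abcg5, Abcg8, Apoa1, Apob, Scarb1, Soat1 and Lipa. They were chosen by name, as the probes that the scanner files or the platform annotation call by these symbols, out of 120 gene probes in all. Lipa carries an older symbol in the scanner files and its current one in the platform annotation. Each gene had 1 probe printed as 3 spots. The series asked how acyclic nucleoside phosphonate antivirals bear on cytochrome P450 expression in mouse liver, and the sterol genes are part of its focused 2-colour design.

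Liver RNA came from female C57BL/6 mice aged 8 to 10 weeks. Of 14 treated animals, 5 received adefovir dipivoxil and 5 tenofovir disoproxil, each at 25 mg/kg by intraperitoneal injection for 3 days. The other 4 formed the positive control and were given 60 mg/kg phenobarbital together with 1 dose of 80 mg/kg β-naphthoflavone on day 2. Phenobarbital induces drug-metabolising enzymes, and β-naphthoflavone activates the aryl hydrocarbon receptor. Livers were taken on day 4. The reference on all 28 arrays was 1 pool of RNA from mice injected with 200 µl of 0.9% saline, made from 10 animals by the sample labels and from 5 by the treatment protocol. Each antiviral animal had 2 arrays with the dyes exchanged, each positive-control animal had 1 array with its own RNA in Cy3, and 4 further arrays carried pooled positive-control RNA, 2 in each dye orientation. A value below is a log2 ratio of treated over saline, 1 per animal, unless a signal is named.

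Cells shed surplus cholesterol through transporters of the ATP-binding cassette family. ABCA1 loads cholesterol and phospholipid onto lipid-poor APOA1 and so starts high-density lipoprotein (HDL), and ABCG1 adds cholesterol to HDL that is already formed. SCARB1 takes cholesterol esters from HDL into the hepatocyte. ABCG5 and ABCG8 work only as a pair, at the canalicular membrane, where they pass cholesterol and plant sterols into bile. APOB is the structural protein of the lipoproteins that carry lipid out of the liver, SOAT1 esterifies free cholesterol for storage, and LIPA, the lysosomal acid lipase, frees it from esters taken up by endocytosis.

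Abcg5 and Abcg8 lie head to head, and the bases between their starts are shown because the pair is followed through all results below. In RefSeq (GRCm38.p6), Abcg5 starts on the minus strand of chromosome 17 at position 84683011 and runs one way, and the Abcg8 start nearest to it, on the plus strand at 84683121, runs the other way, 110 bases apart. RefSeq also gives Abcg8 a second start, and its annotated gene begins at 84676302. The stretch between both starts, chr17:84683012-84683120, holds 109 bases and is printed 5′ to 3′ on the plus strand:
Abcg5-Abcg8 intergenic: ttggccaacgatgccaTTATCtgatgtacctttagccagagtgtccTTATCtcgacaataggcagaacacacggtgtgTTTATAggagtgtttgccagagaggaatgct
Capitals mark the letters GATAA, found 2 times, and TATAAA, found 1 time, each on the minus strand. In the 109 bases before each of 32851 starts in the RefSeq promoter table, GATAA or its reverse complement was in 9.36% and TATAAA or its reverse complement in 5.9%. CCAAT and AGGTCA, searched on both strands in the same way, were not in this window and were in 20.1% and 6.39% of the others. These matches are a description of letters. Of the 9 members, 7 had an entry in that table, and the array files give no genome build and no probe sequences.

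Basal levels differed widely in how far they stood over the local background, and this sets how firmly each member could be measured. A probe was called above background when most of its spots lay over 2 background SDs above the median of their local background. The apolipoprotein mRNAs were the ones above background on all 20 antiviral arrays in both channels. The saline signal of Apoa1 was 16.2 to 174 times the local background over these arrays (median 61.5). That of Apob was 12.6 to 111 times (median 38.6). Lipa followed with saline signals of 1.73 to 10.1 times background, above background on 19 of 20 arrays.

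The sterol exporters and the HDL receptor were dim. In the saline channel of the 20 antiviral arrays, Abcg8 was above background on 17, Abcg5 on 16 and Scarb1 on 14. The median saline signals were 2.65 times background for Abcg8, 2.68 for Abcg5 and 2.30 for Scarb1. Abca1 was above background in the saline channel on 6 arrays and Abcg1 on 1. Soat1 was above background on none of the 20 in either channel, with a median saline signal of 1.04 times background, so its ratios compare signals that were not well above background. Detection also followed the dye: Abca1 saline RNA passed on 6 of 10 arrays when labelled with Cy3 and on 0 of 10 when labelled with Cy5. No spot of a member was saturated.

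**Figure D1:**
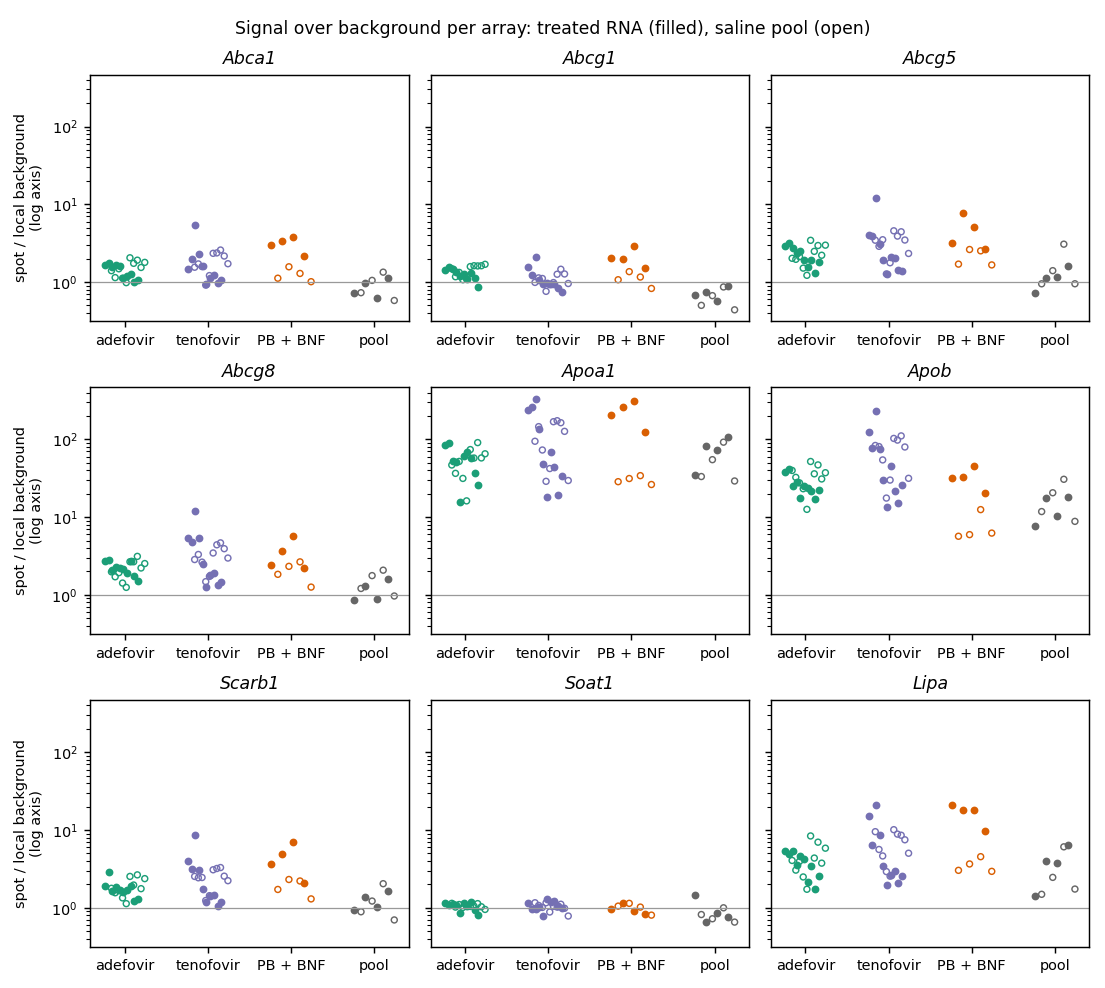
Spot signal over local background on each array (log axis, the line at 1 marks background), filled for treated RNA and open for the saline pool, for adefovir, tenofovir, the positive control (PB + BNF) and its pool arrays. Apoa1 and Apob stand far above 1 on every array, Lipa next, and Soat1 lies around 1.

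The positive-control arrays were less well balanced. Their saline channel, in Cy5, held 9 to 29 probes above background, against 63 to 84 in the treated channel, and the headers of these 4 files mark Cy5 as bad. Saline RNA of Abca1, Abcg1, Abcg5, Abcg8, Scarb1, Soat1 and Lipa was not well above background on any of them. Only bounds on a fold would be possible for these 7 members, and for those with treated RNA above background on at least 1 array every bound came out under 1, so no fold against saline is given. The log2 ratios and their tests are given with that limit. The labelled tissue matched its markers: all 9 measured hepatocyte markers of 11 listed were above background on most antiviral arrays. No marker of Kupffer, endothelial, stellate, bile duct, blood or intestinal cells is among the probes, so shares of those cells could not be followed, and fewer cells of a type and less RNA per cell cannot be told apart.

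Adefovir dipivoxil, a prodrug of adefovir, an acyclic analogue of an adenine nucleotide, moved no member past the threshold, an adjusted p under 0.05 over all 120 probes. The count was 0 of 9 members, against 1.67% of all probes in this comparison (limma, Benjamini-Hochberg), and 0 members had an unadjusted p under 0.05, against 15 of all 120 probes. The members' median was 0.06 beside 0.00 for all probes. For all 9 the 95% interval of the mean lay within 0.5 of 0 on the log2 scale.

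Among the efflux transporters, Abca1 stood at -0.25, 0.04, -0.19, -0.06 and 0.16 in the 5 adefovir animals, with a mean of -0.06 (SE 0.0881). Abcg1 stood at -0.04 in 4 animals and at -0.23 in animal 5, and its treated RNA was above background on 1 of 10 arrays. Abca1 thus lay on both sides of 0, and the Abcg1 values were all a little below it at a signal near background.

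The canalicular pair lay at or above 0. Abcg5 had 0.01, 0.05, 0.01, 0.07 and 0.30, mean 0.09 (95% interval -0.06 to 0.24). Abcg8 had 0.20, 0.14, -0.01, 0.19 and 0.22, mean 0.15 (-0.02 to 0.31, adjusted p = 0.428). One animal, number 5, set the spread of Abcg5, and Abcg8 was above 0 in 4 of 5.

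The apolipoprotein mRNAs differed in spread. Apoa1 had 0.62, 0.64, -0.25, 0.08 and -0.14, an SD of 0.419 that exceeds its mean of 0.19. Apob had -0.10, -0.06, -0.34, -0.01 and -0.07, mean -0.11 (-0.27 to 0.04). Apoa1 was thus high in animals 1 and 2 and low in the others, whereas Apob was below 0 in all 5 by small amounts. Scarb1 averaged 0.06 over a range of -0.06 to 0.30, Soat1 0.15 (-0.02 to 0.26) and Lipa -0.05 (-0.14 to 0.16).

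Tenofovir disoproxil, a prodrug of tenofovir, whose side chain carries a methyl group that adefovir lacks and which is masked by different ester groups, also moved 0 of 9 members past the threshold, against 1.67% of all probes. Abcg8 alone among the members had an unadjusted p under 0.05, against 20 of all 120 probes. The members' median was 0.11 beside 0.02 for all probes, and 8 of 9 members had a mean above 0. The 95% interval lay within 0.5 of 0 for 8 members, the exception being Apoa1.

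Abcg8 stood at 0.30, 0.24, 0.42, 0.12 and 0.09 in the 5 tenofovir animals. All 5 lay above 0, in a range that overlaps that of the adefovir animals. With treated RNA in Cy3 the arrays read 0.58, 0.31, 0.68, 0.30 and 0.28. In Cy5 they read 0.01, 0.17, 0.15, -0.06 and -0.10, and treated RNA was above background on 0 of these 5 arrays. The mean of the 5 animals was 0.23 (SE 0.0769, 95% interval 0.07 to 0.40), with an unadjusted p of 0.00865 and an adjusted p of 0.159 in limma's fit. It passed in 5 of 16 alternative settings, over which its value ran from 0.03 to 0.53. Its partner Abcg5 had -0.05, 0.28, 0.25, 0.08 and 0.01, mean 0.11 (-0.04 to 0.27).

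Apoa1 had 0.47, 0.42, 0.19, -0.09 and 0.22 after tenofovir, mean 0.24 (-0.04 to 0.53, adjusted p = 0.359). It was thus above 0 in 4 of 5 animals, with an SD of 0.225. Apob had 0.17, -0.08, -0.10, 0.20 and 0.17, split around 0. Lipa had 0.26, -0.09, 0.34, -0.05 and 0.15, mean 0.12 (-0.03 to 0.27). Lipa was thus above 0 in 3 animals and below it in the other 2. Abca1 averaged -0.01 over a wide range of -0.32 to 0.26, Abcg1 0.05 (-0.12 to 0.27), Scarb1 0.10 (0.00 to 0.24) and Soat1 0.11 (0.01 to 0.30).

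**Figure D2:**
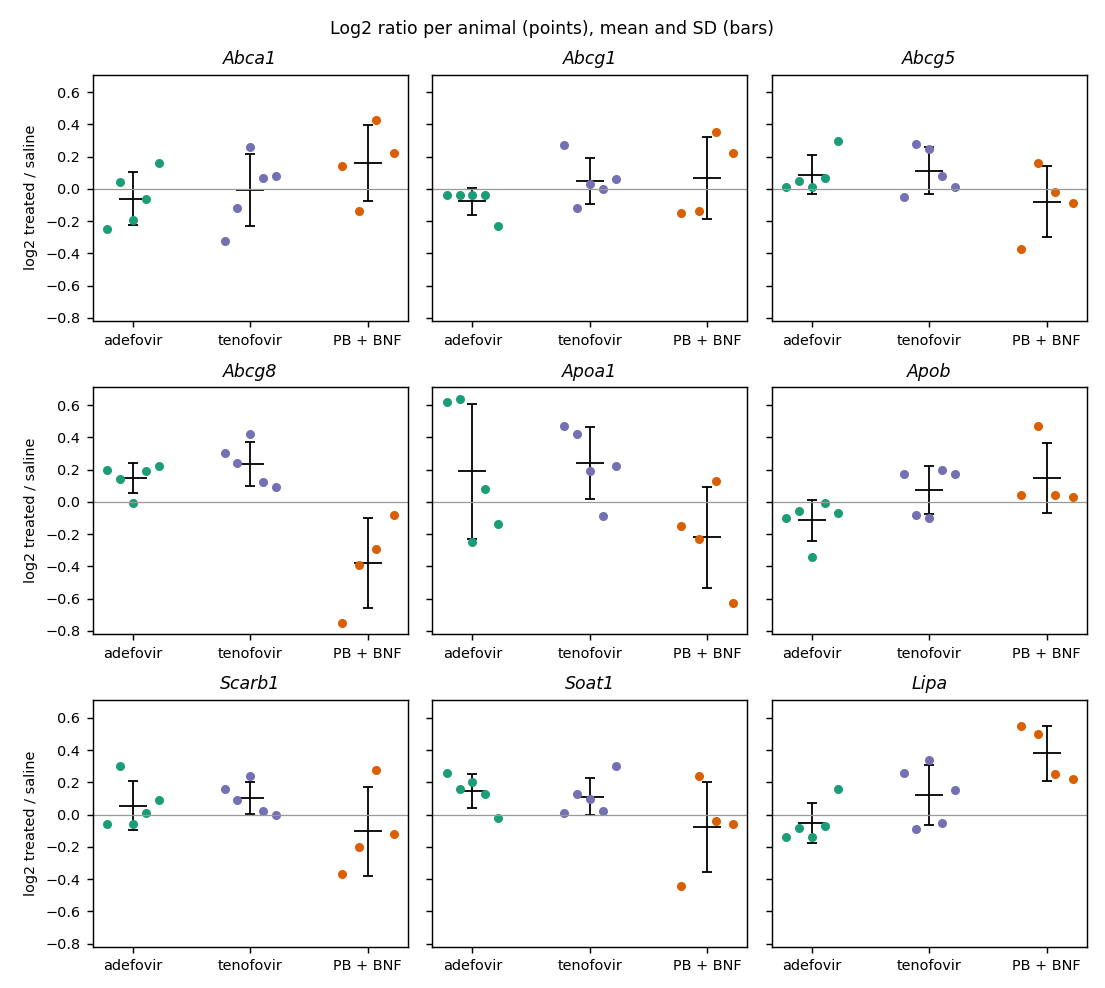
Log2 ratio of treated over saline in each animal (points), with mean and SD (bars), for adefovir, tenofovir (5 animals each) and the positive control, phenobarbital plus β-naphthoflavone (PB + BNF, 4 animals). Positive-control values have the dye effect of each probe subtracted. Abcg8 then lies at -0.75 to -0.08 in the positive control and at -0.01 to 0.42 in the antiviral animals, a gap that is not there without the subtraction.

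Both antivirals were given at the same dose and times, so they were compared directly, as 1 pair of compounds over 120 probes. The difference of adefovir minus tenofovir passed for 0 of 9 members, against 0.00% of all probes, with an adjusted p of 0.983 for every member, and 0 members and 3 of all 120 probes had an unadjusted p under 0.05. The values of the 2 groups overlapped for every member. Differences of means ran from -0.18 for Apob (95% interval -0.40 to 0.04) to 0.03 for Soat1 (-0.20 to 0.26). That of Lipa was -0.17 (-0.39 to 0.04), that of Abcg8 -0.08 (-0.32 to 0.15) and that of Apoa1 -0.05 (-0.46 to 0.35). All 9 intervals lay within 0.5 of 0, which does not show that the compounds act alike.

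After phenobarbital plus β-naphthoflavone the measured ratio of Abcg8 was lower than saline and that of Lipa higher, and no other member passed. For both, saline RNA was not well above background on these arrays and the bound on the fold came out under 1, so the bounds give no direction and the values below are ratios of measured signals. These 2 of 9 members stand against 41.7% of all probes called in this comparison, 21.7% higher and 20.0% lower. The members' median was -0.07 beside 0.00 for all probes. For 6 members, Abcg1, Abcg5, Apob, Scarb1, Soat1 and Abca1, the 95% interval lay within 0.5 of 0.

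Abcg8 stood at -0.75, -0.39, -0.29 and -0.08 in the 4 positive-control animals. All 4 were below 0 and below each of the 10 antiviral animals after the dye effect of 0.09 was subtracted. As read from the arrays they were -0.66, -0.30, -0.20 and 0.01, so that 3 of 4 lay below 0 and below the antiviral animals, and animal 4 overlapped with them. The dye effect averages 2 antivirals that differed in it. After tenofovir Abcg8 read 0.28 to 0.68 in Cy3 and -0.10 to 0.17 in Cy5, after adefovir -0.04 to 0.20 and 0.03 to 0.25. The positive-control mean after the subtraction was -0.38 (SE 0.0860, 95% interval -0.56 to -0.19, adjusted p = 0.00265, limma with Benjamini-Hochberg). Without animal 1, the lowest, it was -0.25 (adjusted p = 0.0207, limma). Treated RNA was above background on 2 of these 4 arrays and saline RNA on none. The call was lost when the positive-control animals were fitted alone (adjusted p = 0.0568, range over 14 alternatives 2.37e-06 to 0.0568).

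Abcg5 did not pass beside it. Its values were -0.37, 0.16, -0.02 and -0.09, on both sides of 0, with a mean of -0.08 (-0.25 to 0.09, adjusted p = 0.440). Treated RNA of Abcg5 was above background on 3 of 4 arrays.

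Lipa stood at 0.55, 0.50, 0.25 and 0.22, all 4 above 0, in a range that overlaps the tenofovir animals. The mean was 0.38 (SE 0.0799, 95% interval 0.21 to 0.55, adjusted p = 0.00154, limma with Benjamini-Hochberg). Its treated RNA was above background on all 4 arrays, at 9.76 to 21.2 times background, and its saline RNA on none, at 2.94 to 4.54 times. It no longer passed without loess in 3 of the centrings, at 0.15 with calibration spots (adjusted p = 0.547), 0.17 with luciferase spots (adjusted p = 0.341) and 0.22 with 3 reference genes (adjusted p = 0.122; range over 14 alternatives 0.000155 to 0.547).

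The other members after the inducers varied by animal. Apoa1 had -0.15, -0.23, 0.13 and -0.63, mean -0.22 (-0.54 to 0.10, adjusted p = 0.254), and it was above background in both channels on all 4 arrays. Apob had 0.04, 0.47, 0.04 and 0.03, mean 0.15 (-0.03 to 0.32). Its mean thus rests on animal 2, and it is 0.04 without that animal. Abca1 had 0.14, -0.14, 0.43 and 0.22, mean 0.16 (-0.05 to 0.37), and Abcg1 -0.15, -0.14, 0.35 and 0.22, mean 0.07 (-0.11 to 0.24). Both were thus lowest in animals 1 or 2 and highest in animal 3. Scarb1 averaged -0.10 (-0.37 to 0.28) and Soat1 -0.07 (-0.44 to 0.24), with treated Soat1 RNA above background on none of the 4 arrays. Without animal 2 in the fit Abca1 passed, at 0.27 (adjusted p = 0.0478), and without animal 3 Scarb1 passed, at -0.23 (adjusted p = 0.0314).

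**Figure D3:**
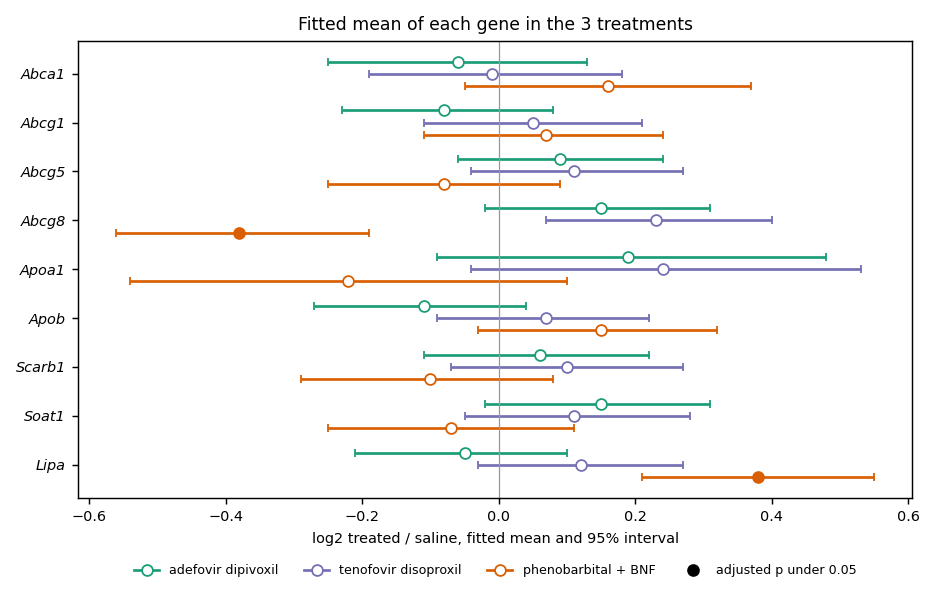
Fitted mean log2 ratio of treated over saline with its 95% interval for each gene after adefovir, tenofovir and phenobarbital plus β-naphthoflavone (BNF), filled where the adjusted p was under 0.05. Abcg8 at -0.38 and Lipa at 0.38 in the positive control are the filled points.

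The sign of several members in the positive control changed with the scaling. Centring without loess, on the spiked calibration RNAs, on luciferase or on the reference genes Actb, Gapdh and Ppia, moved the median of all probes from 0.00 to -0.59, -0.57 and -0.52. Under these scalings 7 of 9 members passed: Abca1, Abcg1, Abcg5, Abcg8, Scarb1 and Soat1 lower, and Apoa1 higher. With calibration spots the split of all calls was 16 higher and 75 lower of 120 probes, with luciferase spots 18 and 80, with the reference genes 19 and 77, and with the array median 31 and 10, against 26 and 24 after loess.

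Set against the median of all probes on the same scale, values under the 4 centrings without loess are nearly alike by construction, since these centrings shift all probes of an array together. Abcg8 lay 0.50 below that median under all 4 centrings without loess and 0.38 below it after loess. Lipa lay 0.73 to 0.74 above it, and 0.38 above it after loess. Apob lay 0.65 to 0.66 above it, and 0.15 after loess. Apoa1 changed sides, from -0.22 after loess to 1.03 to 1.04 above the median without it, so no direction is given for Apoa1. Abca1 and Abcg1 lay 0.09 to 0.14 above the median, Abcg5 -0.13, Scarb1 -0.04 to -0.03 and Soat1 -0.30 to -0.29.

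**Figure D4:**
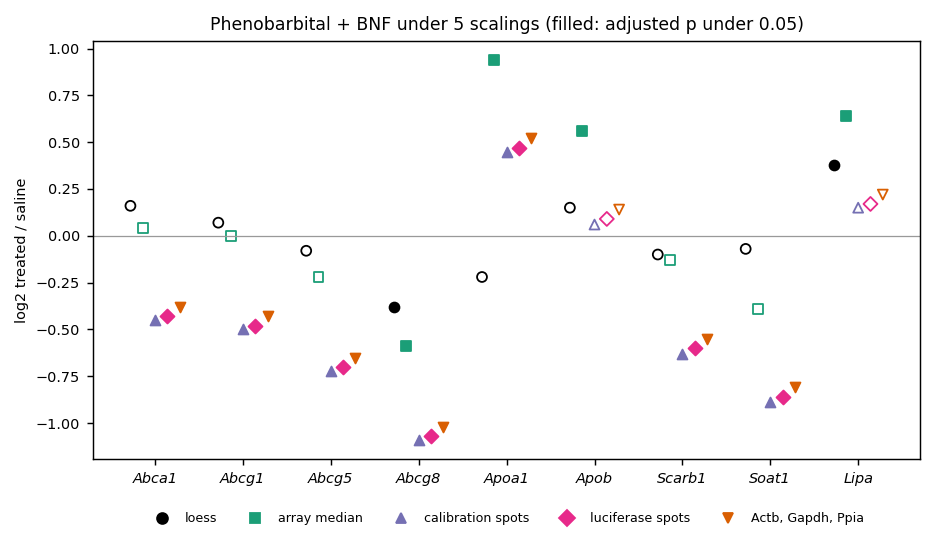
Log2 ratio of treated over saline after phenobarbital plus β-naphthoflavone (BNF) for each gene under 5 scalings, filled where the adjusted p was under 0.05. Abcg8 is below 0 and passes under all 5, Lipa is above 0 under all 5 and passes under 2, and Apoa1 is below 0 after loess and above 0 otherwise.

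The pool arrays carried 1 pooled positive-control RNA sample and give values with no test. Abcg8 read -0.13 and -0.14 with treated RNA in Cy5 and -0.51 and -0.30 in Cy3, a mean of -0.27 over both orientations. Abcg5 read -0.19, -0.30, -0.36 and -0.17 in the same order, mean -0.25. Both genes were thus below 0 on all 4 arrays, by similar means, while Abcg8 saline RNA was above background on 1 of the 4 and Abcg5 on none.

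Lipa read 0.02 and 0.42 with treated RNA in Cy5 and 0.54 and 0.48 in Cy3, mean 0.37 beside 0.38 in the single animals. Its treated RNA was above background on 2 of the 4 pool arrays and its saline RNA on 2. Both were above it only on the array that read 0.54. Apob read -0.44, -0.24, -0.53 and -0.62, mean -0.46. Apob was thus below 0 on every pool array. In the single animals it was above 0 in all 4 only after a dye effect of -0.15 was subtracted, and the arrays themselves read -0.11, 0.32, -0.11 and -0.12. Apob saline RNA was above background on 2 of those 4 arrays and on 4 of 4 here. Apoa1 read -0.24 and -0.37 with treated RNA in Cy5 and 0.02 and 0.05 in Cy3, so its sign followed the dye. Abcg1 averaged 0.17, Abca1 -0.15 and Scarb1 0.08, all below background in both channels. Soat1 ran from -0.54 to 2.26, with 1 array above background in the treated channel.

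The inducers were also compared with both antivirals together. Again 2 of 9 members passed, against 36.7% of all probes, 20.0% higher and 16.7% lower. The difference of Abcg8 was -0.57 (95% interval -0.79 to -0.35, adjusted p = 0.000513, limma with Benjamini-Hochberg). That of Lipa was 0.35 (0.14 to 0.55, adjusted p = 0.00905), although its animals overlap with the antiviral ones. The positive-control animals of Abcg8, at -0.75 to -0.08, lay below all antiviral ones, at -0.01 to 0.42. Such gaps were not counted over all probes, so this one is not called particular to Abcg8. The Abcg8 separation rests on the dye effect of 0.09 subtracted from the positive control. Without that subtraction animal 4 is at 0.01, inside the antiviral range, and the difference is -0.48 (adjusted p = 0.00153, limma). Soat1 then reads -0.79, -0.11, -0.39 and -0.41, against -0.02 to 0.30 in the antiviral animals, whose values average both dyes. On the antiviral arrays of the same orientation, with treated RNA in Cy3, Soat1 ran from -0.64 to 0.00 and overlapped with the positive control. Abcg8 ran from -0.04 to 0.68 on those arrays, so animal 4 at 0.01 overlapped there too. Within this dye orientation neither gene was thus free of overlap. Soat1 was above background in neither channel on any of these positive-control arrays. Apoa1 differed by -0.44 (-0.81 to -0.06), with an unadjusted p of 0.0264 and an adjusted p of 0.0689. The other 6 lay between -0.20 and 0.20, with adjusted p of 0.131 or more. This comparison sets single arrays of 1 dye orientation, less a dye effect estimated on the antiviral arrays, against averaged dye pairs. That effect was 0.00 for Lipa and was largest for Soat1, at -0.36.

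Since ABCG5 and ABCG8 work as a pair, the ratio of the 2 mRNAs was described within each animal, after the values above were seen and so with no test. The difference of Abcg8 minus Abcg5 in log2 ratio was -0.30 ± 0.235 (SD, n = 4) in the positive control, over a range of -0.55 to 0.01. In the antiviral animals it was 0.09 ± 0.127 (SD, n = 10), over a range of -0.08 to 0.35. Most positive-control animals were thus below all antiviral ones, and the fourth, at 0.01, was within their range. The means differed by -0.39, or by -0.26 when no dye effect was subtracted. Saline RNA of both genes was not well above background on the 4 positive-control arrays. On the pool arrays the means of both genes were -0.27 and -0.25, close to each other.

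**Figure D5:**
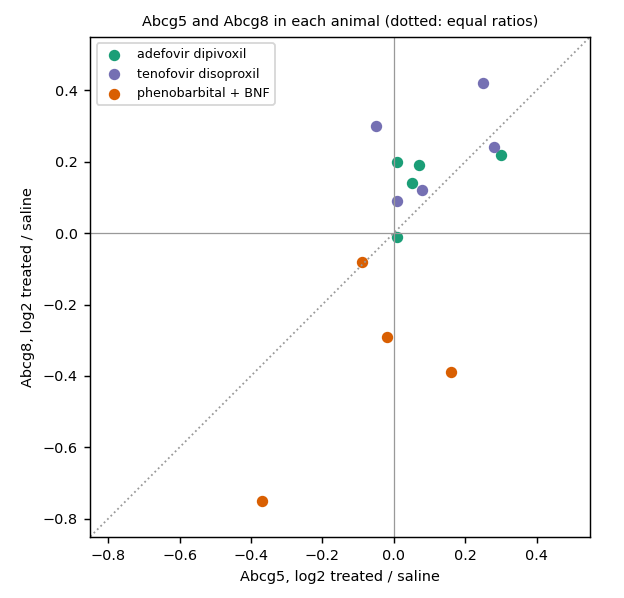
Log2 ratio of Abcg8 against that of Abcg5 in each of the 14 animals, the dotted line marking equal ratios. The antiviral animals lie around or above the line, and 3 of the 4 positive-control animals lie below it.

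Over the 10 antiviral animals no association of the pair passed a test. Abcg5 and Abcg8 correlated at Pearson r = 0.48 (permutation p = 0.166, adjusted 0.623 over 15 pairs of members) and Spearman rho = 0.31 (permutation p = 0.386, adjusted 0.644). Without the 2 animals farthest from the median, adefovir 5 and tenofovir 2, r was 0.53. The 15 pairs cover the 6 members above background in both channels on most antiviral arrays, and none passed. The smallest p belonged to Abcg8 and Lipa, at r = 0.67 (permutation p = 0.0316, adjusted 0.474) and rho = 0.54 (permutation p = 0.114, adjusted 0.571), and r was 0.29 without tenofovir 3 and adefovir 3. The values of an animal share its 2 arrays and the saline pool.

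The 2 arrays of an animal show how well its value was repeated. Over the 10 antiviral animals the log2 ratios of the 2 dye-exchanged arrays correlated at r = 0.66 for Apoa1 and 0.48 for Lipa. The values were 0.23 for Abcg5, -0.10 for Abcg8 and -0.40 for Apob. Differences between single animals were thus repeated best for Apoa1, whose high values in adefovir animals 1 and 2 were the widest of any member, and not for Abcg8 or Apob.

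Of 61 other probes above background, the closest in pattern over the 10 antiviral animals were found for each of those 6 members, as a description. Abcg8 was most like Actb (r = 0.78) and Nr2f2 (0.74), and Abcg5 most like Cyp2j6 (0.58) and Cyp27a1 (0.54). Apoa1 was most like Ppia (0.78) and Cyp4b1 (0.59), and Scarb1 most like Nr2f2 (0.87) and Cyp4b1 (0.71). Lipa was most like Abcg8 (0.67) and Abcb11 (0.66), and Apob most like Nr1d2 (0.75). Actb and Ppia were printed as reference genes.

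Partners of these genes in sterol and lipoprotein transport were sparse on the array, with 10 of 54 listed genes measured. After either antiviral 0 of 10 passed, against 1.67% of all probes, with medians of -0.07 for adefovir and 0.00 for tenofovir. After the inducers 4 passed as lower and 0 as higher, with a median of -0.13. Of all probes 41.7% passed there in either direction, 20.0% lower and 21.7% higher. Scp2, a lipid carrier and peroxisomal thiolase, fell by 0.80 (adjusted p = 1.53e-06, limma), and Cyp7a1, the rate-limiting enzyme of bile acid synthesis, passed at -0.21 (adjusted p = 0.0292, limma), with treated RNA above background on 1 of the 4 positive-control arrays and saline RNA on none. The others were Cyp46a1, a cholesterol hydroxylase (-0.15), and a gene the platform annotation leaves unnamed. Cyp46a1 was above background in neither channel on any antiviral array or on any of the 4 positive-control arrays. Abcb4 and Abcb11, which export phospholipid and bile salts into bile beside the Abcg5 and Abcg8 pair, did not pass, at -0.16 (adjusted p = 0.266) and 0.18 (adjusted p = 0.171).

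Regulators of sterol and lipid genes were better covered, with 16 of 28 listed genes measured. None of the 16 passed after either antiviral, against 1.67% of all probes, where the medians were 0.06 and 0.07. After the inducers 2 passed as lower and 1 as higher, against 20.0% lower and 21.7% higher of all probes, with a median of -0.02. Cebpa, a hepatocyte transcription factor, passed at -0.41 (adjusted p = 0.0221), Ppargc1a, a coactivator of fasting metabolism, at -0.38 (adjusted p = 0.00457), and Pparg at 0.18 (adjusted p = 0.0387) in limma's fit. Saline RNA of Cebpa was above background on 1 of the positive-control arrays and that of Ppargc1a on none. Pparg was above background on no antiviral array, and in neither channel on any of the positive-control arrays. Among hepatocyte markers, 3 of 9 passed as lower and 1 as higher after the inducers, beside the same shares of all probes. They were Cyp2e1 at -1.45, Slc10a1 at -0.70 and Cyp7a1 at -0.21, against Cyp8b1 at 0.70. Saline RNA of Cyp8b1 was above background on none of the positive-control arrays and that of Slc10a1 on 1. The part of such marker changes in the results for Abcg8 and Lipa was not tested.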

How the data were processed

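Liver RNA of 14 treated mice and 1 positive-control pool was hybridised with saline-pool RNA on 28 two-colour arrays of 578 spots, 360 of them for 120 gene probes. The deposited scanner files give the median intensity of each spot and of its background, not background-subtracted or normalized, per the file headers. The authors also deposited a table of log2 ratios, which ran as treated over saline (r of 0.677 to 0.965 with the scanner values across probes). How it was normalized and centred remains unknown, and the medians of its columns lay between -1.54 and 0.94. Of the probes, 110 are paired with a gene by the platform annotation and 10 are named only in the scanner files. These 10 were tested and counted and are not named. Symbols matched RefSeq directly for 115 probes and by synonym for 3. Direction was checked on 8 spiked ratio probes, whose log ratios correlated at 0.847 or more between arrays of either dye orientation. The lowest correlation between arrays of 1 orientation was -0.270 over all probes.

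R 4.3.3 with limma 3.58.1 was used, and Python 3.11.15 with matplotlib 3.10.9 for figures. Background was corrected with normexp (offset 50), and each array was normalized by loess (span 0.3) over gene spots, with control spots at weight 0. Spots of a probe and dye pairs of an animal were averaged. A dye effect per probe, from the antiviral dye exchanges, was subtracted from the positive-control arrays. The limma fit gave each group its own mean over the 14 animals, with 11 residual and 3.36 prior degrees of freedom. P-values from eBayes were adjusted over 120 probes by Benjamini-Hochberg, with a threshold of 0.05. The procedure was tested on simulated data. Tests against saline take the mean ratio against 0 and leave out the spread of the saline animals, and all 3 treatments share the saline pool. The pool arrays entered no test. Bounds used levels after Aquantile scaling and may carry dye bias for the positive-control arrays. Correlations had 100000 permutations. Each slide held 1 animal, array position on it coincided with dye orientation, and no scan date is in the files. The number of arrays limits the precision.

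The members, gene lists and tests were chosen with earlier results of these data known. All 9 members are named in each comparison. Of the listed genes, those that passed are named, at most 10 per comparison, and other genes by likeness of pattern, 2 per member. Abcb4 and Abcb11 were named after their values were seen, for their place in bile export. Alternatives were 4 centrings without loess, 2 background settings, a filter on dim probes, spot medians, single dye orientations, array weights, a random block for the animal, separate fits, no dye correction, the deposited log2 table, a replicate block and leaving out each animal. Replicate numbers do not pair the animals: of 13 same-numbered pairs across groups, 6 correlated over 0.1, with r from -0.44 to 0.37.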

Additional observations from a re-analysis of the deposited data

Results flagged for a closer look

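Within groups of 4 or 5 animals, 27 combinations of gene and treatment were checked for 1 animal far from the others, and 5 were found. The nominal rate by chance is about 1 in 20 groups. Flags in the same animal are not independent, and the check was counted for the members alone. The count is thus not read as an excess. In adefovir animal 5, Abcg1 was at -0.23 with the others at -0.04, Abcg5 at 0.30 with the others at 0.01 to 0.07, and Lipa at 0.16 with the others at -0.14 to -0.07. In adefovir animal 3, Apob was at -0.34 with the others at -0.10 to -0.01. In positive-control animal 2, Apob was at 0.47 with the others at 0.03 to 0.04. For Abcg1 the treated RNA was above background on 1 of 10 adefovir arrays, and the part of such dim signals in its value was not tested.

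The response to the inducers differed from that to both antivirals for Abcg8, by -0.57 (adjusted p = 0.000513, limma; below all antiviral animals in 4 of 4 positive-control animals, and in 3 of 4 with no dye effect subtracted), and for Lipa, by 0.35 (adjusted p = 0.00905, limma; above 0 in 4 of 4). For both genes saline RNA was not well above background on the positive-control arrays.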

How the results depend on the processing

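Counts of members past the threshold moved by over 1.5 times as follows. After phenobarbital plus β-naphthoflavone (2 in the fit reported) it was 4 with arrays centred on their median, 7 on calibration spots, 7 on luciferase spots, 7 on Actb, Gapdh and Ppia, 4 with uncorrected Cy3 arrays alone, 5 with no dye effect subtracted, 1 (Lipa) with that group fitted alone, and 0 with the deposited series table, which holds values for 3 members there. With no background correction it was 3, within that limit. Over all 120 probes the calls were 41, 91, 98, 96, 52, 60 and 35 in the first settings, in that order, against 50 in the fit reported. They were 18 of 39 with the series table and 59 with no background correction. For the inducers minus the antivirals (2) the count of members was 5, 6, 6 and 6 under the same centrings, 4 with no dye effect subtracted and 0 with the series table, and, within that limit, 3 with no background correction, the filter on dim probes, spot medians or Cy3 alone. Over all 120 probes the calls were 50, 91, 94 and 90 under these centrings and 58 with no dye effect subtracted, against 44. They were 17 of 39 with the series table. In the last settings they were 51, 38 of 70, 44 and 41. After tenofovir (0) the count of members was 1 with luciferase spots, array weights or a random block for the animal and, in a setting chosen after seeing the data, 1 without the positive-control animals, each time Abcg8, higher. It was 5 with treated RNA in Cy3 alone, 1 in Cy5 alone (Soat1) and 1 with the series table (Scarb1). Over all 120 probes the calls were 8, 9, 12 and 7 where Abcg8 passed as the 1 member, against 2 in the fit reported. They were 29 in Cy3 alone, 24 in Cy5 alone and 7 of 77 with the series table. After adefovir (0) the count of members was 2 in Cy5 alone, Abca1 lower and Soat1 higher, beside 23 of 120 probes. Leaving out 1 animal gave 2 to 3 calls after the inducers and 2 to 4 for the inducers minus the antivirals, 4 without positive-control animal 2 or 3, and 0 for adefovir, tenofovir and their difference. With a replicate block the counts were 0 after adefovir, 0 after tenofovir, 2 after the inducers, 0 for adefovir minus tenofovir and 3 for the inducers minus the antivirals (Apoa1 lower is added). It changed no other call of a member.

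Where the value or its alternative passed the threshold, signs changed as follows. After the inducers, Apoa1 was 0.94 with the array median, 0.45 with calibration spots, 0.47 with luciferase spots and 0.52 with the reference genes. In the last 3 settings Abca1 was -0.45, -0.43 and -0.38, and Abcg1 -0.50, -0.48 and -0.43. For the inducers minus the antivirals, Apoa1 was 0.78 with the array median, Abca1 -0.69, -0.63 and -0.42, Abcg1 -0.77, -0.70 and -0.49, and Lipa -0.06 with calibration spots (adjusted p = 0.817 in limma). After tenofovir, Soat1 was -0.29 in Cy3 alone. The cause was not tested. With neither passing, signs also changed for 18 of 185 values after adefovir, 18 of 185 after tenofovir, 11 of 163 after the inducers, 27 of 221 for adefovir minus tenofovir and 9 of 244 for the inducers minus the antivirals. Abcg8 kept its direction after the inducers in all 14 alternatives, at -1.09 to -0.29, and the call in 13, and kept both with each of the 4 animals left out. Lipa kept its direction there in all 14, at 0.15 to 0.64, and the call in 11. The Abcg8 minus Abcg5 difference, added after seeing the data, kept its direction in all 7 other settings (-0.61 to -0.26) and with each of 14 animals left out (-0.49 to -0.30). Of these settings, the array median and calibration spots both gave -0.48 by construction, since each shifts all probes of an array together. Signal over background limits the values of Soat1, Abcg1 and Abca1 most.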
